A study of Mus musculus with 8 samples.

Results

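The genes described here are 34 mouse genes of the cells that line the third ventricle. 12 are genes of tanycytes, 21 are genes of motile cilia as carried by ependymal cells, and *Mia3*, a relative of *Mia* in the endoplasmic reticulum, belongs to neither list. Their probes were found by the RefSeq accession that the files give for each probe, and every gene had at least 1. They amounted to 47 probes (15, 30, and 2) of 55681 probes and 20284 named genes in all. The study profiled the arcuate nucleus (Arc), the ventromedial nucleus (VMH), the dorsomedial nucleus (DMH), and the lateral hypothalamus (LH) of the mouse, cut out by laser microdissection, to find genes that mark the DMH. Each nucleus is a group of 2 arrays, written here as Arc1 and Arc2 and so on, which gives 8 arrays. All groups were female C57BL/6 mice (C57BL/6J in the methods) at 3 months of age, and the labels name no transgene, deletion, drug, or diet for any of them. The tissue came from 2 mice, and the labels do not tie an array to a mouse, so p-values measure only the spread between these samples.

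As background, tanycytes are radial glia-like cells in the floor and lower walls of the third ventricle, with long processes that run into the Arc and the median eminence and, higher up the wall, toward the VMH and DMH. They express the homeobox factor Rax and the intermediate filament proteins vimentin and nestin, and are known for handling thyroid hormone and for contact with both the cerebrospinal fluid and the blood. Ependymal cells are the multiciliated cells of the ventricle wall. Their beating cilia have an axoneme of doublet microtubules with dynein arms, radial spokes, and a central pair of microtubules, and their genes are switched on by the factor Foxj1 together with the Rfx factors, which bind a motif called the X-box.

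The nuclei carried their known marker genes. *Agrp*, a peptide of feeding neurons, was at 47181 to 53020.4 in the Arc and at most 581 elsewhere, and *Fezf1*, a VMH transcription factor, at 5982 to 7587 in the VMH and at most 315 elsewhere. These values are scaled signals, the processed intensity of the probe after each array was divided by its 75th percentile. *Prdm13* read 1661 and 1667 in the DMH and 140.3 on LH1. *Hcrt*, the orexin gene and the LH marker, was at 105971 and 116750.0 in the LH but also at 55939.9 and 51283 in the DMH. LH1 and LH2 correlated less with each other (0.938 over the probes tested for differences) than LH2 did with DMH2 (0.954), while the other replicate pairs correlated at 0.971 to 0.981. Between 47.1% and 52.7% of the spots of an array were well above background by the call of the extraction software, which is the depth that an array has.

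Tanycyte genes that differed between the nuclei were mostly higher in the Arc. Of the 15 tanycyte gene probes, 13 (11 genes) had both arrays of some nucleus well above background and were tested with limma on the log2 scale, with p adjusted over all 28896 probes tested and a threshold of 0.05. Across the 4 nuclei 7 of the 13 were called (4 without Arc1), for *Cd59a*, *Fgf10*, *Frzb*, *Gpr50*, *Mia*, *Rax*, and *Vim*, where 8.34% of all probes were. The same 7 were called between at least 1 pair of nuclei, against 13.6% of all probes. In this and later paragraphs, shares of all probes beside a count of calls are taken over the probes tested. Those beside a count of array order are taken over the 28765 of them with a value on every array. Higher in the Arc were 6 probes in the comparison with the VMH, 5 with the DMH, and 6 with the LH, and 0 were lower in any of the 3 by limma (0, 1, and 0 at an unadjusted p under 0.05). Of all probes 2.40%, 0.533%, and 3.33% were higher in the Arc in these comparisons. The median log2 difference over the 13 probes was 1.09 from the VMH, 0.74 from the DMH, and 0.80 from the LH, beside 0.01, 0.02, and 0.05 over all probes tested. *Rax* and *Frzb* entered the test only because both Arc arrays measured them, so their part in these counts follows from the filter. Without them the Arc was higher for 4, 3, and 4 of 11 probes, with medians of 0.77, 0.74, and 0.59. These still hold *Fgf10*, which was measured in the Arc and VMH alone and counts among those higher than in the DMH and LH. Away from the Arc fewer were called. The VMH was higher than the DMH for 1 probe (1.10% of all probes) and lower for 2 (0.945%), higher than the LH for 1 (2.24%) and lower for 3 (3.04%), or 1 and 1 when arrays were not scaled, and the DMH was higher than the LH for 1 (0.260%) and lower for 1 (0.664%), or 1 and 0 without scaling. The 6 comparisons share arrays, so their counts do not stand apart from each other. Both Arc arrays read above all 6 other arrays for 7 of the 13 tanycyte probes (8.65% of all probes), both VMH arrays for 0 (8.13%), both DMH arrays for 1 (2.20%), and both LH arrays for 2 (12.2%). Among the 7 are *Rax* and *Frzb*, whose place follows from the filter, and *Prdx6* probes A_55_P2176729 and A_55_P2176731. Probe A_55_P2103561 of *Prdx6* instead read highest on the LH arrays. In microdissected tissue fewer cells of a type and less RNA per cell cannot be told apart.

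**Figure D1:**
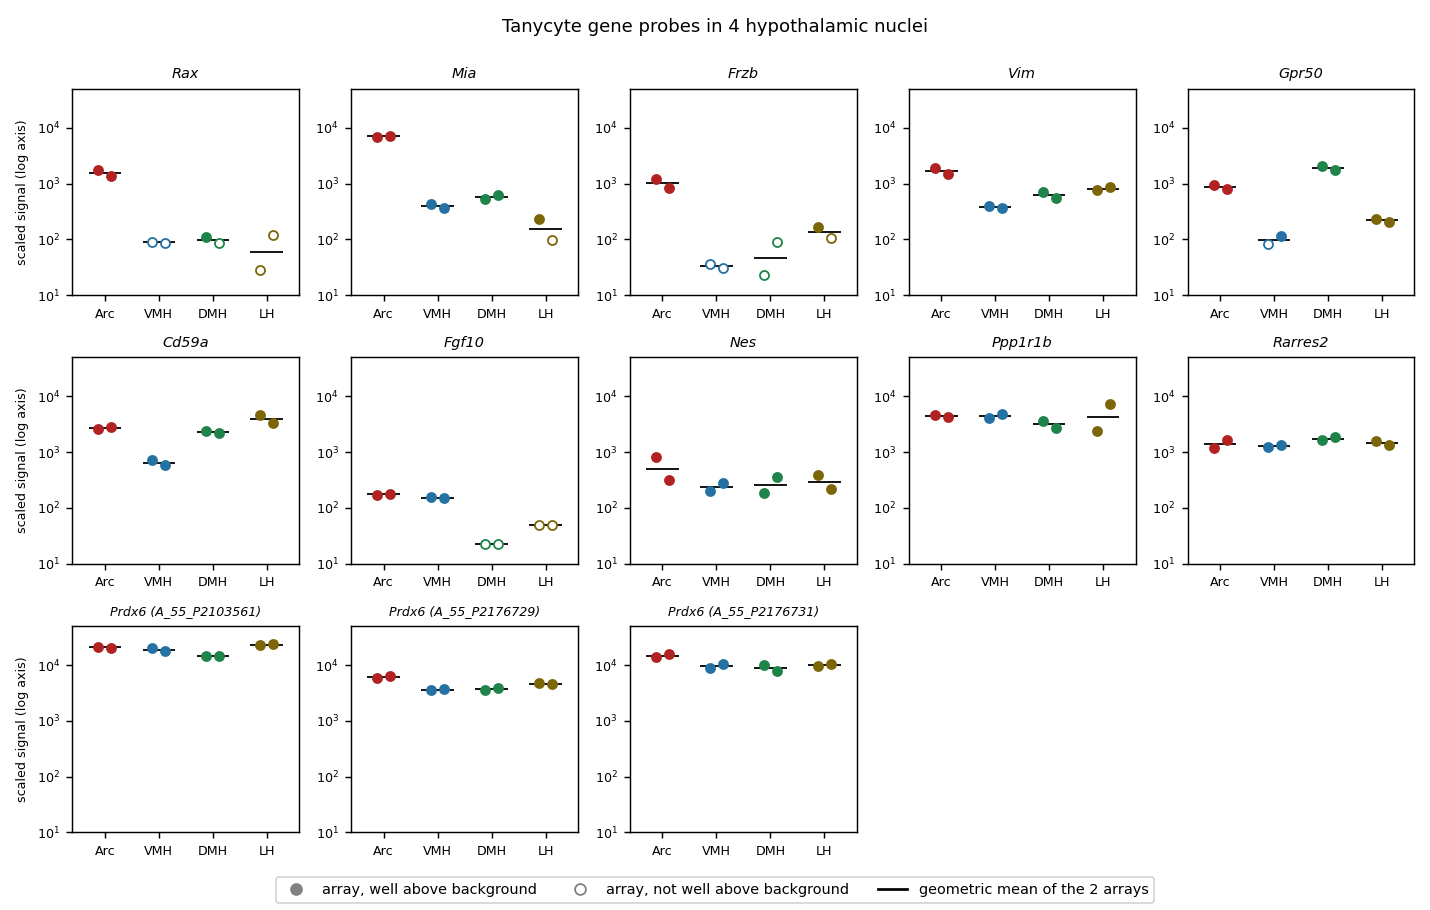
Scaled signal (log axis) of the 13 tested tanycyte gene probes on each of the 8 arrays, by nucleus; open circles are arrays on which the probe was not well above background, and lines are geometric means of the 2 arrays of a nucleus (n = 2). The Arc arrays stand above all other arrays for *Rax*, *Mia*, *Frzb*, and *Vim*, the VMH arrays lie lowest for *Cd59a*, and no pair of nuclei was called for *Prdx6*, *Ppp1r1b*, *Rarres2*, or *Nes*.

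In 4 tanycyte genes the Arc was above each other nucleus in a called comparison, a pattern that 0.339% of all probes showed. Of the 4, *Rax* and *Frzb* were tested because of the Arc alone, which leaves *Mia* and *Vim*. *Rax*, the homeobox gene that tanycytes keep from the embryonic hypothalamus, gave 1738 and 1360.1 in the Arc, 89.8 and 86.8 in the VMH, 112 and 87.0 in the DMH, and 28.4 and 120.1 in the LH. Both Arc arrays stood far above the other 6, of which only DMH1 was well above background. The Arc level of *Rax* exceeded that of the VMH at least 14.8-fold (adjusted p = 0.0112 with limma), that of the LH at least 15-fold (adjusted p = 0.0055), and 15.6-fold higher than in the DMH (log2 difference with its standard error 3.96 ± 0.60, adjusted p = 0.0321). An "at least" marks a nucleus where neither array was well above background, so that its level is set to the lowest measured signal or to its own reading, whichever is higher. The comparison with the DMH lost its call when any Arc, VMH, or DMH array was left out (adjusted p between 0.0876 and 0.195), that with the VMH without any Arc or VMH array (0.0691 to 0.0903), and that with the LH without Arc1 (0.0504) or in a fit of the 2 nuclei alone (0.0524). Against the LH the value was 12.8-fold without LH1, which is under the bound, and 54.1-fold without LH2.

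*Mia*, which encodes a small secreted protein with an SH3-like fold originally known from melanoma and cartilage, gave 6937 and 7085 in the Arc, 426 and 368 in the VMH, 521 and 633 in the DMH, and 234 and 97.5 in the LH. All arrays but LH2 measured it, and the Arc arrays exceeded every other array by more than an order of magnitude. Its Arc level was 17.7-fold that of the VMH (log2 difference 4.15 ± 0.39, adjusted p = 0.00268), 12.2-fold that of the DMH (3.61 ± 0.39, adjusted p = 0.00952), and 46.4-fold that of the LH (5.54 ± 0.39, adjusted p = 0.00118, limma). The last value rests on a dim array, since it was 71.9-fold without LH1 and 30.0-fold without LH2. Without any 1 of the Arc or DMH arrays the comparison with the DMH was not called (adjusted p between 0.0519 and 0.0738). *Mia3*, whose product has a related domain and helps load collagen for export, showed none of this. Probe A_51_P315085 ranged from 4325 to 5357 and probe A_66_P139460 from 433 to 775 over the 8 arrays, and neither was called between any nuclei.

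*Frzb*, a secreted inhibitor of Wnt ligands, gave 1219 and 836 in the Arc, 35.8 and 31.1 in the VMH, 23.2 and 90.5 in the DMH, and 169 and 105 in the LH. Besides the Arc arrays only LH1 was well above background, and the Arc arrays did not overlap with any other. The Arc was at least 9.72-fold higher than the VMH (adjusted p = 0.00644, limma), at least 10.8-fold higher than the DMH (adjusted p = 0.0201), and 7.56-fold higher than the LH (log2 difference 2.92 ± 0.60, adjusted p = 0.0293). These calls ended when any Arc or VMH array was left out (adjusted p up to 0.144 for the DMH and 0.178 for the LH), except that the call against the VMH held without Arc2, and that against the LH also ended without LH2 (0.0741).

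*Vim*, the vimentin gene, whose filaments fill the long tanycyte process but also those of other glia and of vessel cells, gave 1926 and 1503 in the Arc, 392 and 371 in the VMH, 698 and 547 in the DMH, and 776 and 852 in the LH. It was well above background on every array, lowest in the VMH and with the Arc arrays above all others. The log2 difference of the Arc was 2.16 ± 0.23 from the VMH (adjusted p = 0.00382), 1.46 ± 0.23 from the DMH (adjusted p = 0.0353), and 1.07 ± 0.23 from the LH (adjusted p = 0.0326) by limma, and the VMH was lower than the LH (-1.09 ± 0.23, adjusted p = 0.0419). Only the comparison of the Arc with the VMH held in every alternative. That with the DMH was lost without any Arc, VMH, or DMH array (adjusted p up to 0.223), those of the LH without any array (up to 0.205), and all 3 when arrays were not scaled (0.149 to 0.177), without the filter on dim probes (0.0678 to 0.091), and in a fit of the 2 nuclei alone (0.0578 to 0.14), that of the VMH with the LH also with the normexp correction (0.0502). *Nes*, the gene of the related filament nestin, gave 822 and 313 in the Arc, 197 and 286 in the VMH, 183 and 357 in the DMH, and 394 and 215 in the LH. Arc1 was the highest array, but Arc2 lay below DMH2 and LH1, so that the nuclei overlapped, and no comparison was called (the Arc against the VMH, 1.09 ± 0.56, adjusted p = 0.339, limma).

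*Gpr50* and *Cd59a* did not follow the Arc in the same way, and both were lower in the VMH than in each other nucleus, where 0.484% of all probes were. *Gpr50*, the gene of an orphan receptor related to the melatonin receptors, gave 927 and 814 in the Arc, 83.5 and 114 in the VMH, 2097 and 1774 in the DMH, and 235 and 207 in the LH. The DMH arrays were the highest, the Arc arrays came next, and the VMH arrays lay below all others, VMH1 not well above background. The paper cites an earlier report of high *Gpr50* in the ventral DMH, though its own search did not pick the gene. Which cells gave the signal here was not tested. It was higher in the Arc than in the VMH (log2 difference 3.15 ± 0.24, adjusted p = 0.00115) and LH (1.98 ± 0.24, adjusted p = 0.00452), and higher in the DMH than in the VMH (4.31 ± 0.24, adjusted p = 0.00064) and LH (3.13 ± 0.24, adjusted p = 0.00694, limma). Between the DMH and the Arc the log2 difference was 1.15 ± 0.24, adjusted p = 0.0864, which did not pass although the arrays did not overlap, while an adjusted p of 0.0206 came from the normexp correction and 0.0458 from setting dim signals to the lowest measured one. The fall from the LH to the VMH (-1.17 ± 0.24, adjusted p = 0.0373) was lost without any array but LH2 (adjusted p between 0.0751 and 0.202), when arrays were not scaled (0.217), and, apart from the replicate block, under 3 further settings (0.0792 to 0.163), and a fit of the 2 nuclei alone also lost that between the DMH and LH (0.085). A level in the Arc and DMH above both the VMH and LH occurred for 0.0346% of all probes, and *Gpr50* was among them.

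*Cd59a*, whose product sits on the cell surface and blocks the membrane attack complex of complement, gave 2606 and 2796 in the Arc, 730.0 and 585 in the VMH, 2387 and 2239.7 in the DMH, and 4700.4 and 3356 in the LH. All arrays measured it, the VMH arrays were the lowest and the LH arrays the highest. The VMH was lower than the Arc (log2 difference -2.05 ± 0.24, adjusted p = 0.00545), the DMH (-1.82 ± 0.24, adjusted p = 0.0141), and the LH (-2.60 ± 0.24, adjusted p = 0.00322, limma), and the other 3 nuclei were not called apart. The comparison with the DMH was lost without any VMH or DMH array (adjusted p between 0.0608 and 0.0978) and that with the Arc without Arc2 (0.0528). *Fgf10*, a growth factor gene of tanycytes with neurogenic potential, gave 172 and 177 in the Arc, 158 and 149 in the VMH, 22.7 and 22.8 in the DMH, and 49.8 and 49.95 in the LH. It was dim, with both Arc and both VMH arrays well above background and no DMH or LH array so. The Arc was at least 1.87-fold higher than the DMH (adjusted p = 0.000985) and at least 1.71-fold higher than the LH (adjusted p = 0.00272), and the VMH at least 1.64-fold and at least 1.5-fold higher (adjusted p = 0.00118 and 0.00588, limma). The DMH and LH were also called apart (adjusted p = 0.047), but no array of either was well above background, so no fold is given, and the call was lost in every alternative other than leaving out LH2. When dim signals were set to the lowest measured one (adjusted p from 0.109 to 0.853) and with the normexp background correction (0.0503 to 0.392), none of the 5 calls held, and that between the VMH and LH was also lost with trended and robust moderation (0.0759) and in a fit of the 2 nuclei alone (0.0669).

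The other tanycyte genes were not called between any nuclei. *Ppp1r1b*, which encodes a phosphatase inhibitor of dopamine signalling, ranged from 2408 to 7315, both of them LH arrays. *Rarres2*, the gene of the secreted chemerin, lay between 1168 and 1849.9 on the 8 arrays. For the antioxidant enzyme gene *Prdx6*, 3 probes were measured on all arrays, from 3587 to 23836, while the fourth probe was well above background on no array, so the probes of this gene disagree. *Adm*, the gene of the vasodilator adrenomedullin, was well above background on no array.

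Other genes used as tanycyte markers, from a longer list of 17 genes, were called in both directions. Of 22 tested probes 9 were called across the nuclei (8.34% of all probes). Higher in the Arc were 3 probes in the comparison with the VMH, 3 with the DMH, and 4 with the LH, and lower in the Arc were 1, 1, and 3. Of all probes 2.40%, 0.533%, and 3.33% were higher and 3.52%, 0.727%, and 6.02% were lower in the Arc, so that the share lower than the VMH was near that of all probes. *Dio2*, the deiodinase that activates thyroid hormone, gave 1712 and 1129.8 in the Arc, 324 and 344 in the VMH, 209 and 171 in the DMH, and 713 and 518 in the LH, with the Arc arrays above all others. It was higher in the Arc than in the VMH (log2 difference 2.06 ± 0.28, adjusted p = 0.00908), DMH (2.88 ± 0.28, adjusted p = 0.00705), and LH (1.19 ± 0.28, adjusted p = 0.0447, limma). *Crym*, which encodes a binding protein of thyroid hormone, gave 1444 and 1408 in the Arc, 1019.6 and 883 in the VMH, 150.3 and 176 in the DMH, and 216 and 293 in the LH, so that the Arc and VMH stood above the DMH and LH in all 4 comparisons (log2 differences from 1.92 to 3.13). *Lhx2*, a LIM homeobox gene, was higher in the Arc than in the VMH (4.34 ± 0.68, adjusted p = 0.0147, limma), and was also called higher in the LH than in the VMH. *Scn7a*, a sodium channel gene, was higher in the Arc than in the DMH (at least 2.89-fold) and LH (at least 2.65-fold), and was also called higher in the VMH than in the LH. In contrast *Trhde*, which encodes the ectoenzyme that degrades thyrotropin-releasing hormone, was lower in the Arc than in the VMH (-1.09 ± 0.23, adjusted p = 0.0414), DMH (-2.08 ± 0.23, adjusted p = 0.0104), and LH (-1.28 ± 0.23, adjusted p = 0.0195), and both probes of *Slco1c1*, a thyroid hormone transporter gene, were lower in the Arc than in the LH.

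Motile cilia genes were measured in part. 9 of their 30 probes were well above background on no array, compared with 41.7% of all probes (30.0% for the cilia genes), and 14 probes could not be tested, while 51.9% of all probes were tested. *Foxj1*, the factor that drives the program of motile ciliogenesis, gave 51.8 and 93.4 in the Arc, 85.4 and 59.5 in the VMH, 104 and 74.8 in the DMH, and 88.3 and 114 in the LH, well above background on none of the arrays, with no nucleus set apart. The 5 other genes read on no array were *Tmem212*, *Enkur*, *Mlf1*, *Spag17*, which encodes a protein of the central pair, and *Dnah11*, a dynein heavy chain gene of the outer arm. *Ak7*, *Dnah5*, and *Tctex1d4* were well above background on 1 or 2 arrays and were not tested. The name of ependymal cells comes from the gene list, and which cells gave the signal was not tested. *Foxj1* was not measured, and *Ccdc153*, often used to mark these cells, lay between 696 and 1282 on the 8 arrays without a call. A probe below background gives no level for its gene.

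**Figure D2:**
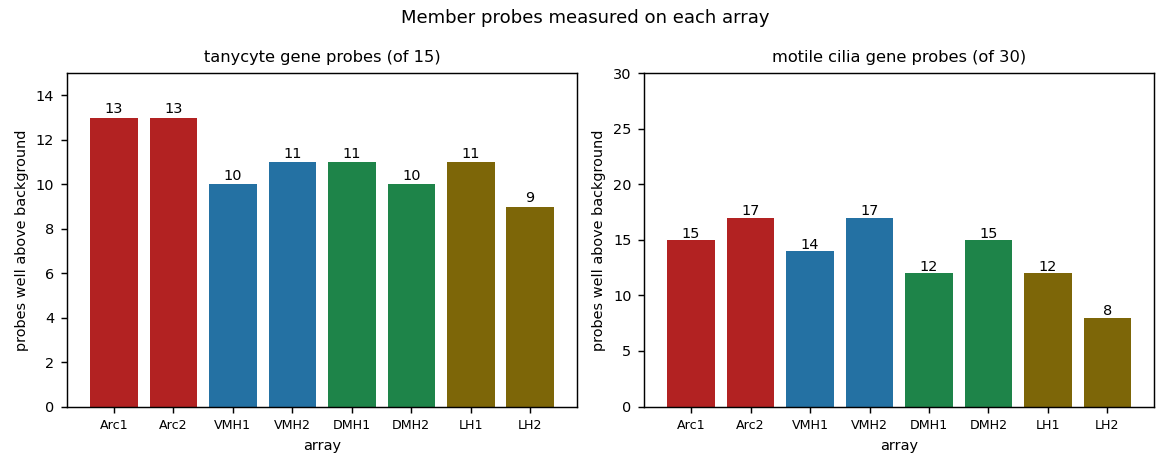
Number of tanycyte gene probes (left, of 15) and motile cilia gene probes (right, of 30) that were well above background on each array. The Arc arrays measured 13 tanycyte probes each and the other arrays 9 to 11; for the cilia genes LH2 measured the fewest, 8, and Arc2 and VMH2 the most, 17 each.

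The calls among the cilia genes were mostly of the Arc and VMH over the LH. Of 16 tested probes (12 genes), 10 were called across the 4 nuclei (8.34% of all probes) and 11 between at least 1 pair (13.6%), from the 7 genes *Cfap126*, *Dynlrb2*, *Hydin*, *Meig1*, *Rsph1*, *Spag16*, and *Tekt1*. Leaving out Arc2 brought these counts to 5 and 7. In the comparison of the Arc with the LH 10 were higher in the Arc (3.33% of all probes) and 0 lower, with a median log2 difference over the 16 probes of 1.97. *Dynlrb2* and *Spag16* entered the test through the Arc alone and *Hydin* through the VMH alone, so their calls follow in part from the filter. Without these 3 the Arc was higher than the LH for 8 of 13 probes, with a median of 1.72, and the VMH for 5. These still hold a *Cfap126* and a *Meig1* probe with no LH array well above background. Over all 16 the VMH was higher than the LH for 6 probes (2.24% of all probes) and lower for 0. The counts of 0 stayed 0 at an unadjusted p under 0.05. Both Arc arrays read above all 6 others for 5 of the 16 probes (8.65% of all probes), both VMH arrays for 5 (8.13%), both DMH arrays for 2 (2.20%), and both LH arrays for 0 (12.2%). The Arc's 5 include *Dynlrb2* and *Spag16* and the VMH's 5 include *Hydin*, whose places follow from the filter. Between the Arc and VMH 4 probes were higher in the Arc (2.40% of all probes) and 1 in the VMH (3.52% of all probes), which became 2 and 1 when arrays were not scaled. Between the Arc and DMH 3 were higher in the Arc (0.533%) and 0 in the DMH (0.727% of all probes were), 7 and 0 at an unadjusted p. The VMH and DMH were called apart for 3 probes higher in the VMH (1.10%) and 1 in the DMH (0.945%), or 3 and 2 without scaling, and the DMH and LH for 1 higher in the DMH (0.260% of all probes) and 0 in the LH (0.664%), with 7 and 0 of the 16 at an unadjusted p under 0.05.

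**Figure D3:**
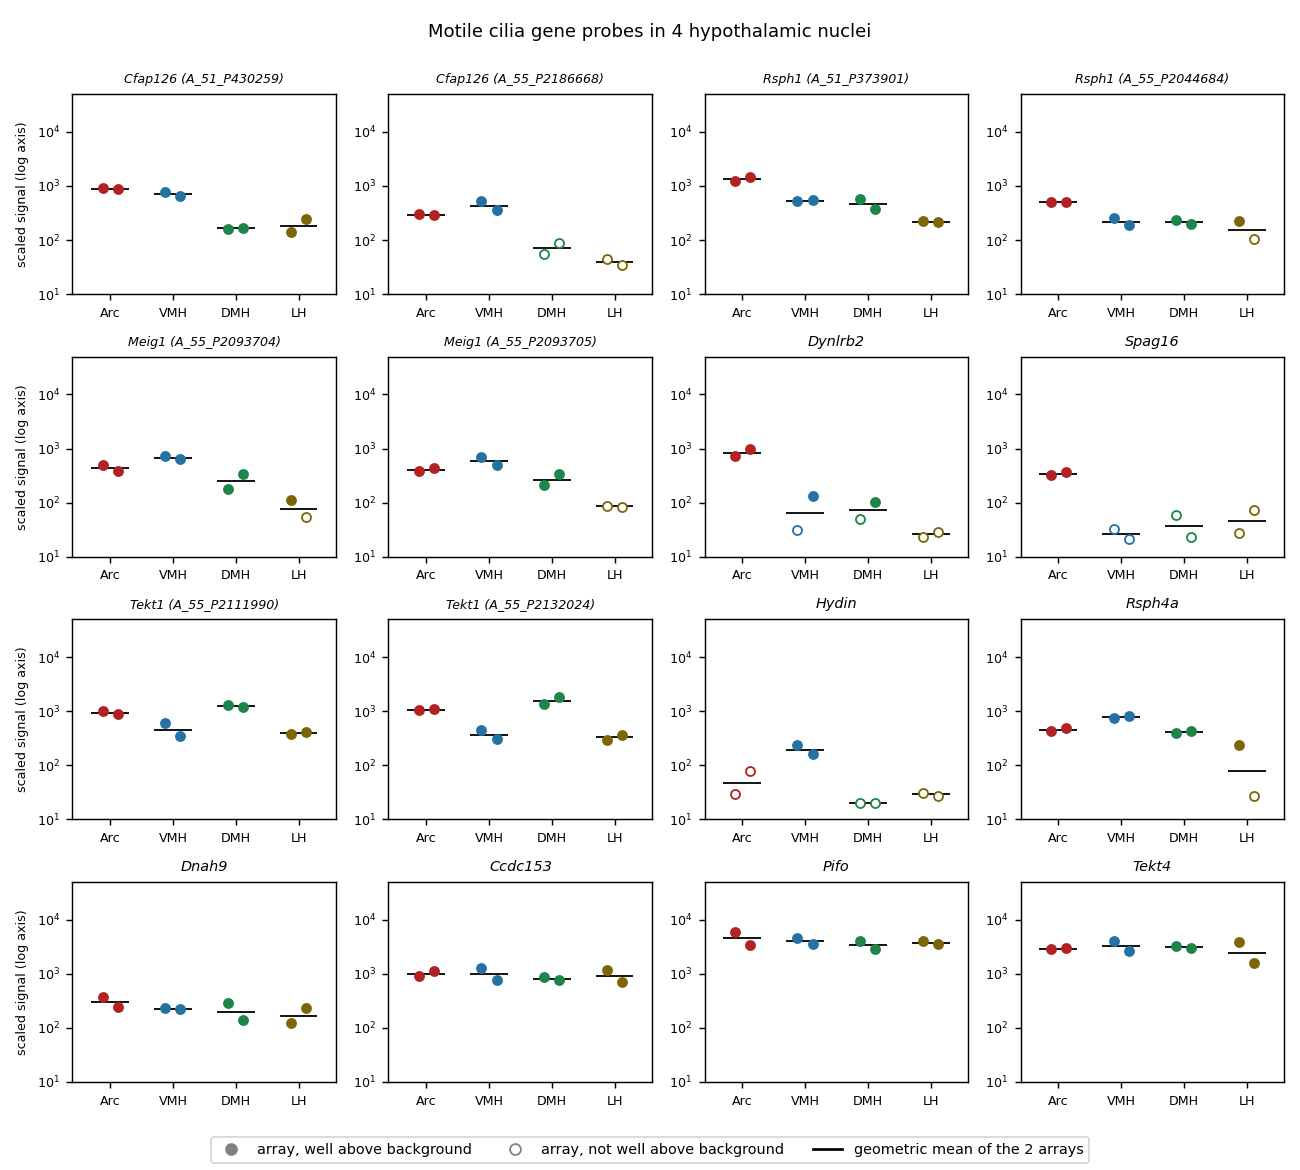
Scaled signal (log axis) of the 16 tested motile cilia gene probes on each of the 8 arrays, by nucleus, drawn as for the tanycyte genes; the probe name is given where a gene has more than 1 tested probe. The LH arrays are lowest for *Meig1* and for *Rsph1* on probe A_51_P373901, the Arc arrays stand alone for *Dynlrb2* and *Spag16*, the VMH arrays for *Hydin*, and *Tekt1* is highest in the DMH and Arc.

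*Cfap126*, also called Flattop, which encodes a protein that positions basal bodies and lies inside the doublet microtubules, was higher in both the Arc and the VMH than in the DMH and LH. Probe A_51_P430259 gave 899 and 887 in the Arc, 764 and 640.2 in the VMH, 160.1 and 168 in the DMH, and 139 and 244 in the LH, and probe A_55_P2186668 gave 304 and 284 in the Arc, 526 and 360.1 in the VMH, 56.0 and 87.1 in the DMH, and 45.3 and 34.1 in the LH. On both probes every Arc and VMH array lay above every DMH and LH array, and the latter probe was not well above background on any of those 4 lower arrays. By the former probe the log2 difference of the Arc was 2.44 ± 0.29 from the DMH (adjusted p = 0.0126) and 2.27 ± 0.29 from the LH (adjusted p = 0.00552), and that of the VMH 2.09 ± 0.29 from the DMH (adjusted p = 0.0174) and 1.92 ± 0.29 from the LH (adjusted p = 0.0151) by limma. By the latter probe the Arc was at least 3.14-fold and at least 2.88-fold higher (adjusted p = 0.0293 and 0.00321) and the VMH at least 4.65-fold and at least 4.25-fold (adjusted p = 0.00942 and 0.00293). Of all probes 0.111% were higher in the Arc and VMH than in the DMH and LH in all 4 comparisons, and the tanycyte gene *Fgf10* was another of them. Leaving out Arc or DMH arrays ended the call between these nuclei for both probes (adjusted p up to 0.0965 and 0.182), and for the latter probe VMH arrays did so too. The VMH and DMH were no longer called by the former probe without any Arc, VMH, or DMH array (up to 0.127) and by the latter without VMH1 or DMH1 (up to 0.0657), and the VMH and LH not by the former without either VMH array (up to 0.108). The call between the Arc and DMH by the latter probe was also lost without scaling (0.0699), with the normexp correction (0.0698), and with trended and robust moderation (0.0515), apart from the replicate block, and those of the Arc and VMH with the LH by the former in a fit of the 2 nuclei alone (0.0503 and 0.104).

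*Rsph1*, which encodes a head protein of the radial spoke, gave 1255 and 1449.9 in the Arc, 528 and 545 in the VMH, 583 and 372 in the DMH, and 226 and 213 in the LH on probe A_51_P373901. Probe A_55_P2044684 gave 499 and 512 in the Arc, 254 and 191 in the VMH, 231 and 196 in the DMH, and 226 and 104 in the LH. Both probes read highest on the Arc arrays, with no overlap with any other array. The former was higher in the Arc than in the VMH (log2 difference 1.33 ± 0.26, adjusted p = 0.0304), DMH (1.54 ± 0.26, adjusted p = 0.046), and LH (2.62 ± 0.26, adjusted p = 0.00254), and higher in the VMH than in the LH (1.29 ± 0.26, adjusted p = 0.0364, limma). The latter was called only between the Arc and LH (1.72 ± 0.37, adjusted p = 0.0331). Among the calls of the former probe that between the Arc and LH alone held in every alternative. The other 3 were lost when any Arc or VMH array was left out (adjusted p up to 0.25), when arrays were not scaled (0.0852 to 0.198), without the filter on dim probes (0.0614 to 0.0784), and for the Arc and DMH also without DMH1, DMH2, or LH2 and for the VMH and LH also without LH1 or LH2. A fit of the 2 nuclei alone lost the call for the Arc and DMH (0.0726) and for the VMH and LH (0.102), the latter also lost with the normexp correction (0.0941). The call of probe A_55_P2044684 ended without any Arc, VMH, or DMH array (0.0612 to 0.166), without scaling (0.0751), without the filter on dim probes (0.0579), and in a fit of the 2 nuclei alone (0.122). *Rsph4a*, another spoke head gene, was read by probe A_55_P2030903 on all arrays but LH2, where it gave 26.5 and was not well above background, against 240.3 on LH1 and 802 at most, and no comparison passed. Its other probe was well above background on VMH2 and DMH2 alone and was not tested.

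*Meig1*, originally known from male germ cells and needed there for the sperm flagellum, gave 488 and 384 in the Arc, 724 and 643 in the VMH, 181 and 344 in the DMH, and 113 and 53.2 in the LH on probe A_55_P2093704. Probe A_55_P2093705 gave 377 and 430.4 in the Arc, 687 and 501 in the VMH, 208 and 339 in the DMH, and 87.6 and 84.7 in the LH. On both probes the VMH arrays were the highest and the LH arrays the lowest, and only LH1 on the former probe was well above background in the LH. By the former the log2 difference from the LH was 2.48 ± 0.43 for the Arc (adjusted p = 0.0175) and 3.14 ± 0.43 for the VMH (adjusted p = 0.0116) by limma. By the latter the Arc was at least 3.75-fold higher than the LH (adjusted p = 0.00605) and the VMH at least 5.46-fold (adjusted p = 0.00508). Leaving out 1 Arc array (0.0765 to 0.12) or 1 VMH array (0.0656 to 0.0895) ended the calls of the former probe, and leaving out Arc2 that of the latter for the Arc (0.0519). A fit of the 2 nuclei alone also ended both calls of the former (0.0659 and 0.061).

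*Dynlrb2*, the gene of a light chain of cytoplasmic and ciliary dynein, gave 729.6 and 971 in the Arc, 31.1 and 134 in the VMH, 50.02 and 104 in the DMH, and 22.9 and 29.1 in the LH. The Arc arrays were far above the rest, of which only VMH2 and DMH2 were well above background. The Arc exceeded the LH by at least 8.23-fold (adjusted p = 0.00652) and its mean was 13-fold that of the VMH (log2 difference 3.70 ± 0.67, adjusted p = 0.0245, limma). The comparison with the DMH was not called (log2 difference 3.54 ± 0.67, adjusted p = 0.0685). Without Arc2 neither call held (adjusted p = 0.0533 for the LH and 0.144 for the VMH), nor did that with the VMH without Arc1 (0.121) or VMH1 (0.0734). VMH1 was not well above background, and the value was 6.26-fold without VMH1 and 27.1-fold without VMH2.

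*Spag16*, which encodes a protein of the central apparatus, gave 322 and 364 in the Arc, 32.3 and 21.1 in the VMH, 58.2 and 22.8 in the DMH, and 27.6 and 74.2 in the LH on its tested probe. Only the Arc arrays were well above background, so that the probe was tested because of the nucleus in which it was high. The Arc was at least 3.29-fold higher than the VMH (adjusted p = 0.0146) and at least 3.35-fold higher than the LH (adjusted p = 0.0256, limma), and the difference from the DMH was not called (adjusted p = 0.058). The other *Spag16* probe, of another RefSeq transcript, was well above background on Arc2 alone, at 224. Both calls ended when any Arc or VMH array was left out (adjusted p between 0.0521 and 0.131), and that with the LH also in a fit of the 2 nuclei alone (0.0686).

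*Tekt1*, the gene of a tektin, a filament protein inside the doublet microtubules, gave 1045 and 1090.3 in the Arc, 441 and 304 in the VMH, 1349 and 1835 in the DMH, and 297 and 366 in the LH on probe A_55_P2132024. Probe A_55_P2111990 gave 996 and 880.0 in the Arc, 593 and 342 in the VMH, 1321 and 1218 in the DMH, and 385 and 413 in the LH. The DMH arrays were the highest on both, the Arc arrays next, and the VMH and LH arrays the lowest. By the former it was higher in the Arc than in the VMH (log2 difference 1.54 ± 0.27, adjusted p = 0.0218) and LH (1.69 ± 0.27, adjusted p = 0.0126), and higher in the DMH than in the VMH (2.10 ± 0.27, adjusted p = 0.0134) and LH (2.25 ± 0.27, adjusted p = 0.0234, limma). This is the pattern described for *Gpr50*. By the latter the Arc and LH differed (1.23 ± 0.28, adjusted p = 0.042), and the DMH and LH did not pass (1.67 ± 0.28, adjusted p = 0.0544). Each call of the former probe was lost when some arrays were left out, with an adjusted p up to 0.0856 between the Arc and LH (Arc1 or Arc2), 0.13 between the Arc and VMH (any array of these nuclei), 0.0823 between the DMH and LH (any Arc, VMH, or DMH array), and 0.0843 between the VMH and DMH (VMH2, DMH1, or DMH2). The call of the latter was lost without any Arc, DMH, or LH array (0.0695 to 0.222), without scaling (0.0669), with the normexp correction (0.0557), without the filter on dim probes (0.0814), and in a fit of the 2 nuclei alone (0.0742). That fit also lost the call of the former probe between the DMH and LH (0.131), and the absence of scaling that between the Arc and VMH (0.0527).

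*Hydin*, which encodes a very large protein of the central pair and whose loss causes hydrocephalus in mice, gave 29.0 and 78.8 in the Arc, 232 and 165 in the VMH, 20.4 and 20.3 in the DMH, and 30.5 and 27.5 in the LH on its tested probe. Only the VMH arrays were well above background, and they lay above all others, so that the probe was tested because of the nucleus in which it was high. The VMH was at least 1.73-fold higher than the Arc (adjusted p = 0.0464), at least 2.09-fold higher than the DMH (adjusted p = 0.0169), and at least 1.91-fold higher than the LH (adjusted p = 0.0194, limma), a pattern of 0.540% of all probes. The other *Hydin* probe was well above background on no array. All 3 calls were lost when dim signals were set to the lowest measured one (adjusted p from 0.126 to 0.189), with the normexp background correction (0.0796 to 0.107), and without VMH1 or VMH2 (up to 0.262), and the call against the Arc also without Arc1, DMH1, DMH2, or LH2, that against the DMH without DMH1 or DMH2, and that against the LH without DMH2. The call against the Arc was lost in 3 further settings as well (0.0633 to 0.0959), apart from the replicate block.

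The remaining tested cilia genes were not called between any nuclei. *Tekt4*, another tektin gene, was measured on all arrays between 1563 and 3962, and *Ccdc153*, a gene of a coiled-coil protein often used to mark ependymal cells, between 696 and 1282. *Pifo*, whose product acts at the base of the cilium, lay between 2870.5 and 6007 on 1 probe and was well above background on no array by the other. *Dnah9*, an outer arm dynein gene, lay between 121 and 375. Among these, the largest log2 difference between the Arc and LH was that of *Dnah9* (0.85 ± 0.44, adjusted p = 0.273, limma). For *Ccdc153* the highest and the lowest array belonged to the VMH and the LH.

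**Figure D4:**
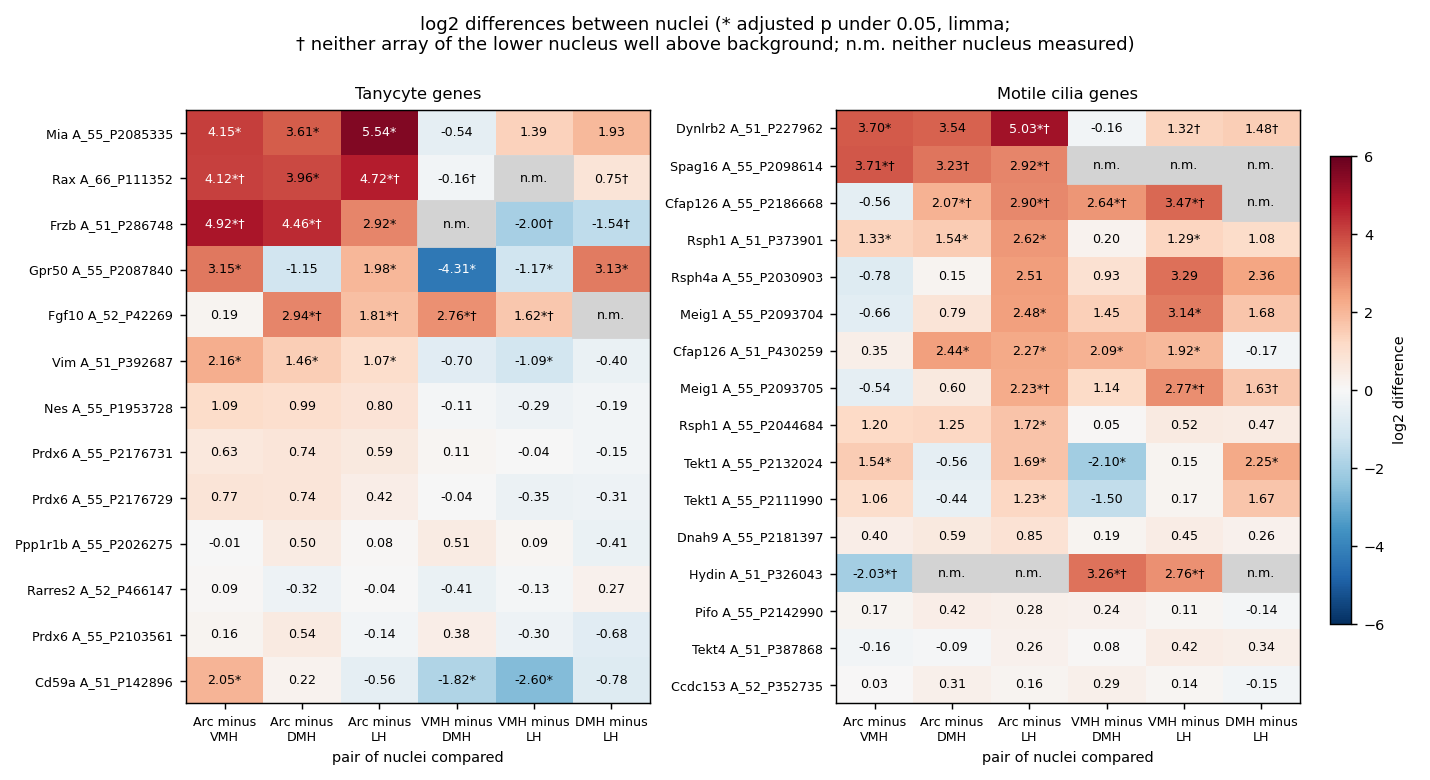
log2 differences between nuclei for the 13 tested tanycyte gene probes (left) and the 16 tested motile cilia gene probes (right), ordered by the difference between the Arc and LH; stars mark an adjusted p under 0.05 with limma, daggers comparisons in which neither array of the lower nucleus was well above background, and grey cells those with neither nucleus measured. The column of the Arc minus the LH holds 10 stars among the cilia genes, and *Hydin* is the 1 star with the Arc lower than the VMH.

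A longer list of 65 cilia genes, of which 56 had a probe, was likewise called most often for a higher signal in the Arc or VMH than in the LH, although most of its probes were not called. Of 45 tested probes 12 were called across the nuclei (8.34% of all probes). The Arc was higher than the LH for 9 and lower for 3, and the VMH was higher than the LH for 9 and lower for 0 (20 and 2 at an unadjusted p). Of all probes 3.33% and 6.02% were higher and lower in the Arc than in the LH, and 2.24% and 3.04% in the VMH, so that the share lower in the Arc was near that of all probes. *Dnali1*, the gene of an inner arm dynein light chain, gave 476 and 543 in the Arc, 34.9 and 92.2 in the VMH, 42.5 and 25.1 in the DMH, and 30.3 and 35.6 in the LH. It was measured in the Arc alone, so that it was tested because of the nucleus in which it was high. Its Arc level was at least 4.79-fold that of the VMH, at least 5.43-fold that of the DMH, and at least 4.97-fold that of the LH (adjusted p = 0.0121, 0.0126, and 0.00446, limma). These calls follow in part from the filter, and the counts of the longer list were not repeated without such probes. *Fam183b*, an axonemal gene, gave 10887 and 11963 in the Arc, 4532 and 4535 in the VMH, 3544 and 3837 in the DMH, and 2789.6 and 2320.5 in the LH and was higher in the Arc than in the VMH (1.33 ± 0.20, adjusted p = 0.0122), DMH (1.63 ± 0.20, adjusted p = 0.0144), and LH (2.17 ± 0.20, adjusted p = 0.00219, limma). *Dnaaf3*, needed to assemble dynein arms, exceeded the VMH in the Arc at least 3.12-fold (adjusted p = 0.0138) and the DMH at least 3.47-fold (adjusted p = 0.0287, limma). In the VMH *Ccno*, a cyclin-like gene of multiciliated cells, gave 316 and 439 and at most 144 elsewhere, and was higher than in each other nucleus, as was *Hydin*. Of the X-box factors, *Rfx3* was called higher in the Arc, the VMH, and the DMH alike than in the LH, by 1 probe in each comparison. The Arc value was at least 3.24-fold, and the other 2 probes were not called between the Arc and LH. Both *Rfx4* probes were lower in the Arc than in the LH (-1.59 ± 0.27, adjusted p = 0.0165, and -1.45 ± 0.34, adjusted p = 0.0427, limma).

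Because 4 of the called cilia genes carry a motif of the Rfx factors close to the start of a RefSeq transcript, their upstream sequences are shown. The 250 bases before the start were searched on both strands, in RefSeq promoters of the mouse build GRCm38.p6, for the X-box (its arms GTNNCC and GNAAC held 3 bases apart, N being any base), for its shorter core GTTGCC, which can lie within an X-box, and for the forkhead motif GTAAACA. Of the 21 cilia genes 18 were matched to a promoter by symbol. The X-box was found for 4 of the 18 (*Hydin*, *Spag16*, *Tekt4*, and *Pifo*), the core for 8, and the forkhead motif for 2 (*Ak7* and *Mlf1*). By promoter that was 16.7%, 33.3%, and 8.33% of the 24 promoters of these genes, beside 1.8%, 10.4%, and 3.17% of all 32851 promoters. Of the 56 longer-list cilia genes with a promoter 8 held the X-box, 19 the core, and 4 the forkhead motif. The 8 tanycyte genes with a promoter held neither the X-box nor its core, and *Fgf10* held the forkhead motif. The sequences of the called genes with a match follow, 5′ to 3′ and ending at the base before the start, with matches of the X-box and its core in capitals.
Hydin, chr8:110266727-110266976, plus strand: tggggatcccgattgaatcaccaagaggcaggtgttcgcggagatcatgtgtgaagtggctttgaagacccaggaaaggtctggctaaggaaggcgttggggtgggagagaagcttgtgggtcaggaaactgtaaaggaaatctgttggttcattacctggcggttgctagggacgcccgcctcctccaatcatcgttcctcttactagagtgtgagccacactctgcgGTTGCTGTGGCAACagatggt
Spag16, chr1:69826720-69826969, plus strand: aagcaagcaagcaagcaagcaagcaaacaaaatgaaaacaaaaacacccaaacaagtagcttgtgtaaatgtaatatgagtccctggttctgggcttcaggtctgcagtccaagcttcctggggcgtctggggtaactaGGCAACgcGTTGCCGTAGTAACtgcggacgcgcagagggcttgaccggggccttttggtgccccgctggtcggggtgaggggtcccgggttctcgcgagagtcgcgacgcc
Dynlrb2, chr8:116504765-116505014, plus strand: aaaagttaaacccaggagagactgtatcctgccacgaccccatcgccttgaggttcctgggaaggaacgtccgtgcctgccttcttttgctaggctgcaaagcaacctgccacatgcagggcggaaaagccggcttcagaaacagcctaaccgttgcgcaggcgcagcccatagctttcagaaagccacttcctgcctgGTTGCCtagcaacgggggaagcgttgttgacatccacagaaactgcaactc
Tekt1, chr11:72361883-72362132, minus strand: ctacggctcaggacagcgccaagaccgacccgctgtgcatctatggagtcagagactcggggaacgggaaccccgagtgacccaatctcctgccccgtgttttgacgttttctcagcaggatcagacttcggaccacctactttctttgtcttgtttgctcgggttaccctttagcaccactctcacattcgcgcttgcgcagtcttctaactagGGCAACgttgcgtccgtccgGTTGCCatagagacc
In *Hydin* the X-box GTTGCTGTGGCAAC is followed by 7 bases up to the start. In *Spag16* the X-box GTTGCCGTAGTAAC is followed by 89 bases, and another core lies just before it on the other strand. *Dynlrb2* has 1 core, followed by 45 bases, and *Tekt1* has 2, followed by 29 and 9 bases, in the more upstream of its 2 promoters. The other called cilia genes with a promoter, *Cfap126* and *Meig1*, held none of the 3 motifs in these windows, and *Tekt4* and *Pifo*, which hold the X-box, were not called between nuclei. A match is a run of letters and was not tested for binding.

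Markers of other cell types differed between the same nuclei, and their part in the results was not tested. Oligodendrocyte genes were called across the nuclei for 15 of 17 tested probes (8.34% of all probes), and their summed scaled signal was 21028 to 28638 in the Arc, 47384 to 55445 in the VMH, 40172 to 40193 in the DMH, and 143198 to 156869 in the LH. Of 19 tested astrocyte probes 2 exceeded the VMH in the Arc (2.40% of all probes), both of *Gfap*, and 2 were lower (3.52%), and against the LH 6 were lower in the Arc (6.02%), with summed signals of 130198 to 143758 in the Arc and 171677 to 237811 elsewhere. *Gfap*, a filament gene of astrocytes that tanycytes can also express, gave 3735 and 6337 in the Arc, 1228 and 1284 in the VMH, 2125 and 2377 in the DMH, and 2412 and 3109 in the LH on probe A_55_P2157250. Neuron genes summed to 263288 to 277630 in the Arc and 272352 to 348646 elsewhere, with *Gad1*, *Gad2*, and *Slc32a1* lower in the VMH than in each other nucleus, *Nefl*, *Rbfox3* (3 probes), and *Slc17a6* lower in the Arc than in the VMH, and *Nefl*, *Rbfox3* (1 probe), *Slc17a6*, and *Syt1* lower in the Arc than in the LH. Of 17 choroid plexus probes 10 were well above background on no array. *Ttr*, the most abundant choroid plexus transcript, gave 209 and 251 in the Arc and 161 at most elsewhere, and was higher in the Arc than in the VMH and LH, as was *Kl*. *Clic6* was lower in the LH than in each other nucleus. *Enpp2*, a gene that oligodendrocytes express too, was higher in the LH than in each other nucleus, at 17473 and 25331 against 4979 to 6312, and made up much of the summed choroid plexus signal, which was lowest in the Arc at 9542 to 10099. Microglial probes (15 tested) and leptomeningeal probes (6 tested) were not called between any nuclei by limma (across the nuclei 6 and 1 at an unadjusted p under 0.05). At that unadjusted threshold 9 microglial probes differed between the DMH and LH, 8 of them higher in the LH. Between the VMH and LH 6 did, 5 of them higher in the LH. For the leptomeningeal probes 5 differed between the Arc and LH, 4 of them higher in the LH. Each other pair gave at most 5 microglial and 2 leptomeningeal probes. Endothelial probes summed to 15342 to 16598 in the Arc and 24129 to 30608 in the LH. The Arc arrays were not alike in every respect. *Cga*, the hormone subunit gene of the pituitary and its pars tuberalis, read 1425 on Arc1 and was well above background on no other array, and *Dcn*, a gene of meningeal fibroblasts, read 4162 on Arc1 and 1375 on Arc2. *Rax*, *Frzb*, and *Vim* were somewhat brighter on Arc1 and *Dynlrb2*, *Rsph1*, and *Spag16* on Arc2, differences smaller than those from the other nuclei.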

How the data were processed

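Expression was measured on 8 1-color arrays, 2 for each nucleus, on 1 slide read in 1 scan, where the replicate number and the slide row coincide. The authors isolated RNA from laser-microdissected tissue, amplified it as whole-transcriptome cDNA, and labelled it chemically before hybridization, so differences can be compressed by amplification. The deposited intensity of each spot comes from Agilent Feature Extraction (version 10.7.3.1 per the file headers, 11.5.1.1 per the submitters' processing notes) with background subtracted, and is not scaled between arrays. Its lowest values are positive and closely spaced, so differences among dim spots carry little information. The dye is Cy3 in the labels but Cy5 in the methods, and only red-channel signals are present.

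After outlier spots were dropped, the mean over a probe's spots was taken, arrays were scaled by their 75th percentile (divisors rescaled to a geometric mean of 1), and log2 followed. limma (3.58.1, R 4.3.3) was fitted with a mean per nucleus to the 28896 probes for which both arrays of some nucleus were well above background, with Benjamini-Hochberg adjustment over all of them and a threshold of 0.05. The same fit was tested on simulated data. The number of arrays limits the precision. Of 28390 probes with a RefSeq accession, 26762 (94.3%) were named.

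All 34 genes may be named, with every array's value for probes called in any comparison and for *Rax*, *Gpr50*, *Vim*, *Nes*, and *Foxj1*. Of the 2 longer lists the genes called are named, except for an item that is not reported here, and of the other lists those called between the same nuclei. *Cga*, *Dcn*, *Mcidas*, *Gmnc*, *Tubb4b*, and *Rsph9* fall outside this rule and were chosen after their values were seen. The genes and all lists were chosen with earlier results of these data known. The alternatives are those named in the closing section.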

Additional observations from a re-analysis of the deposited data

How the results depend on the processing

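The 4 counts were repeated under the alternatives, the one-way ANOVA only across the nuclei and the fit of the 2 nuclei alone only between pairs. With quantile normalization, the normexp correction on the median signal (offset 50), the authors' table in place of the single files, dim probes kept, outlier spots kept, dim signals raised, no scaling, trended and robust moderation, a fit of the 2 nuclei alone, and the replicate block they stayed within 1.5 times. The labels do not tie an array to a mouse. Deviations of same-numbered arrays correlated at -0.03 to 0.26, which cannot decide whether the numbers pair the samples. With the replicate block, which also stands for the slide row, 7 tanycyte and 10 cilia probes were called across the nuclei and 7 and 11 between pairs. Under it 9 single comparisons lost their call (adjusted p by limma in brackets). They were those of the Arc and DMH for *Rax* (0.0527), *Vim* (0.0523), *Rsph1* (0.0705), and *Cfap126* (0.0545), of the VMH and LH for *Gpr50* (0.0555), *Vim* (0.0506), and *Rsph1* (0.0511), of the Arc and VMH for *Hydin* (0.0666), and of the DMH and LH for *Fgf10* (0.0799). Among probes well above background on all 8 arrays, 2 of 8 tanycyte and 4 of 8 cilia probes were called across the nuclei and 3 and 4 between pairs, as fewer could be tested. The one-way ANOVA called 3 tanycyte and 0 cilia probes after adjustment, and 10 and 10 at an unadjusted p under 0.05. When 1 array was left out, the calls across the nuclei ranged from 4 (without Arc1) to 7 for the tanycyte and from 5 (without Arc2) to 12 for the cilia probes, and those between pairs from 5 (without Arc1) to 7 and from 7 (without Arc2) to 11. Of 55 called comparisons of single probes, 11 held in every alternative that gave a value and 27 in all but the leave-one-out fits, and 0 changed direction. Without scaling the median over all probes tested moved to between -0.46 (Arc minus DMH) and 0.33 (DMH minus LH), and changes are given relative to it. Signal near background limits what can be said of dim probes.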

Other observations

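Some members of the longer cilia list were bright in all nuclei. The probe named for *Mcidas*, a regulator that starts the program of multiciliated cells, read 58186 to 132839 on the 8 arrays, while *Gmnc*, which acts just before it, was well above background on no array. The probe's own sequence was not used here, so what it hybridizes to was not tested. *Tubb4b*, a tubulin of cilia and of other cells, read 63286 to 73812. *Rsph9*, another radial spoke head gene, gave 4683 and 4967 in the Arc, 4689 and 3919 in the VMH, 3575 and 4056 in the DMH, and 669 and 2569 in the LH, with both LH arrays below all others. No pair of nuclei was called for *Mcidas*, *Tubb4b*, or *Rsph9* by limma, and *Gmnc* was not tested.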
